A study of Mus musculus with 6 samples.

Results

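The gene Smgc, which encodes submandibular gland mucin, was followed through every cell of a single-cell RNA data set of the mouse submandibular salivary gland. It was found by its symbol in the gene lists of all 3 libraries, and it is 1 of the 32285 genes counted there. Its identifier is ENSMUSG00000047295. Each library pooled dissociated cells of 3 wild-type female C57BL/6J mice, whose cells carried hashtag antibodies 1 to 3, so that the mouse was the replicate (n = 3). The untreated whole-epithelium library held Epcam+ cells. The irradiated whole-epithelium library held Epcam+ cells of mice whose left submandibular gland had received 30 Gy of stereotactic radiation 90 days earlier. The basal-sort library held Epcam+ cells of untreated mice that were also high for Cd49f. Mice of every group are labelled as 8 to 10 weeks old, and all sorts left out dead cells and cells with markers of blood or endothelium. Each condition was 1 library, so library, treatment and time since treatment cannot be told apart, and p-values measure only the spread between these mice.

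Smgc protein is a secreted, mucin-like glycoprotein of the salivary secretions. In rodents it is best known from the developing submandibular gland, where it is made by the immature secretory cells of the terminal tubules, and from intercalated duct cells of the adult. Those ducts join the acini, which secrete the watery and proteinaceous saliva, to the larger granular and striated ducts. Smgc and the large gel-forming mucin Muc19 come from a single locus by alternative splicing, so a read from a shared exon cannot be given to either with certainty. Both comparison genes mark other states of the same epithelium: Mucl2 encodes a major secretory product of acinar cells, and Kit, the receptor tyrosine kinase for stem cell factor, marks intercalated duct cells.

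In RefSeq's annotation of GRCm38.p6, Smgc spans 23108 bases of chromosome 15, from 91838328 to 91861435. Mucl2 lies on the same chromosome, from 103895855 to 103899312, and Kit on chromosome 5, from 75574987 to 75656722. The 250 bases before the Smgc start site, on the plus strand of GRCm38.p6, are shown because this gene was the leading transcript of the cells described below. They carry the letters TATAAA, in capitals, once, with the first base 30 bases before the start.

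Smgc, chr15:91838078-91838327: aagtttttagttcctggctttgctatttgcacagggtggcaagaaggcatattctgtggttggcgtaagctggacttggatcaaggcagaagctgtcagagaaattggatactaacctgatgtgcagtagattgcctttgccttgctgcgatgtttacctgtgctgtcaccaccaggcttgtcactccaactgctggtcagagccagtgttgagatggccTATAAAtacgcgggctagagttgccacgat

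TATAAA, searched on both strands, occurred in 4063 of 32851 RefSeq promoter windows of 250 bases, or 12.4%. It was not found in the windows of Mucl2 and Kit. A match is a description of the letters and not evidence of a bound site.

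After filters on genes and mitochondrial reads, 4093 untreated, 2629 irradiated and 4418 basal-sort cells were left. Of these, 2137, 2004 and 3098 had 1 hashtag, were not called doublets and are referred to as kept cells. Median depth per mouse was 12101 to 12194 unique molecular identifiers (UMIs, counts of captured transcripts) in untreated, 19120 to 20315 in irradiated and 11877 to 14080 in basal-sort mice. Median mitochondrial share was 8.95% to 9.95% per untreated mouse, 4.13% to 4.84% per irradiated mouse and 4.49% to 5.16% per basal-sort mouse. The libraries shared 1 to 15 cell barcodes pairwise, and none of those held 100 Smgc UMIs in either library.

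Smgc was either massive or nearly absent in a cell. In the untreated library 510 of 4093 cells past the filters (12.5%, with a 95% exact binomial interval for counting error only of 11.5% to 13.5%) held at least 100 Smgc UMIs. These cells had a median of 4081 Smgc UMIs and a maximum of 18766. Smgc made up a median of 26.4% of all UMIs of such a cell, and 55.4% in the highest. Of the 510 cells, 461 held at least 1000 Smgc UMIs, and 14 cells of the library lay between 50 and 200 UMIs, on either side of the threshold. The cells with at least 100 UMIs held 99.3% of all Smgc UMIs past the filters. Most other untreated cells held a few: 94.4% of all cells had at least 1 UMI, with a median of 3 among cells under the threshold.

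**Figure D1:**
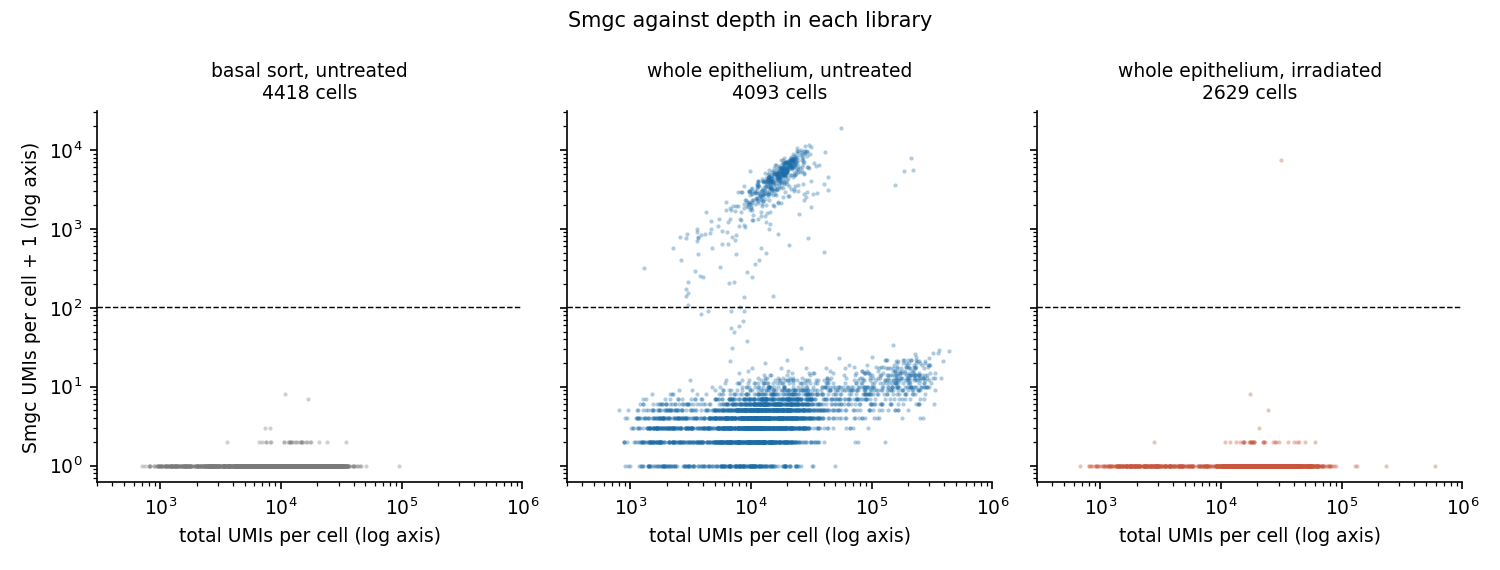
Smgc UMIs + 1 against total UMIs per cell, both on logarithmic axes, for the cells past the filters of each library; each point is a cell and the dashed line marks 100 Smgc UMIs. The untreated library has a separate group of 510 cells above the line, the irradiated library has 1 cell there, at 7447 UMIs, and the basal sort has none.

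In the kept cells, Smgc counts summed per untreated mouse came to 6950, 11315 and 9530 per 1000000 UMIs (CPM), or 9265 ± 2194 (SD, n = 3). All 3 mice were high. At least 100 Smgc UMIs were found in 24 of 702, 37 of 737 and 29 of 698 kept cells of these mice, or 4.20% ± 0.80 (SD, n = 3). At least 10 UMIs were found in 8.00% ± 0.63 (SD, n = 3) of cells.

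Cells were grouped by clustering without Smgc, Mucl2 and Kit, and named "like" a type from marker lists. In 1 of 20 clusters over 50% of cells held at least 100 Smgc UMIs, and it is called the Smgc-rich cluster here. It held 22, 36 and 31 cells of the 3 untreated mice and 1 irradiated cell. Of the 89 untreated cells, 86 were above the threshold, and the cluster held 95.2% of the kept cells' Smgc UMIs. Smgc in it came to 210688, 215982 and 229063 CPM in the 3 mice, or 218578 ± 9459 (SD, n = 3). The median Smgc count per cell was 3497, 4143 and 3702 UMIs. The remaining 4 kept cells above the threshold lay singly in the intercalated duct-like, granular duct-like, ionocyte-like and cycling groups, with 6.03% to 10.5% of their UMIs from Smgc. They held 24981 to 43680 UMIs, against median depths of 6582 to 18223 in their classes. Their computed doublet scores (Scrublet) stood at percentiles 83.7 to 98.5 of the library's kept cells. Whether they were doublets was not tested.

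The name that the marker rule gave this cluster was not stable, so it is given no cell type name. In the main clustering it passed as acinar-like, but with cells without a hashtag added it stayed unnamed, and with hashtags assigned by share it passed as intercalated duct-like. Its genes were mixed. Pip, a secreted salivary protein, stood at 24657 ± 3592 CPM (SD, n = 3) against 18279 ± 3742 in acinar-like cells, and these ranges overlapped. The water channel Aqp5 stood at 535 ± 53.2 CPM against 223 ± 8.29. Other acinar products were far lower: Car6, the secreted carbonic anhydrase, at 272 ± 79.9 CPM against 21900 ± 1925, and the secretoglobin Scgb2b27 at 1458 ± 185 against 63502 ± 5163. Mucl2 stood at 9179 ± 2658 CPM against 593460 ± 17177.

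Of the intercalated duct markers, Gstt1, a glutathione transferase, stood at 151 ± 18.5 CPM in the Smgc-rich cluster and at 147 ± 22.1 in intercalated duct-like cells. The transcription factor Elf5 was at 42.7 ± 20.9 against 339 ± 31.4 CPM, and Kit at 27.4 ± 10.8 against 146 ± 11.9 CPM. Of 7 measured acinar markers, 2 were higher and 4 lower than in acinar-like cells, without overlap of the 3 mice. Of 3 measured intercalated duct markers, 0 were higher and 2 lower than in intercalated duct-like cells. As clusters are defined by expression, these contrasts are descriptions without a test. CPM is a share of a cell's UMIs, and Mucl2 took most of those of acinar-like cells. Of 6556 genes measured, 92.5% were higher and 0.519% lower in the Smgc-rich cluster than in acinar-like cells without overlap of the 3 mice. Against intercalated duct-like cells these shares were 8.45% and 52.2%.

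Read beside those backgrounds, 1 of 13 measured saliva protein genes was higher and 7 were lower than in acinar-like cells, and 3 were higher and 4 lower than in intercalated duct-like cells. Of 8 measured enzymes that build mucin O-glycans, 6 were higher and 1 lower than in acinar-like cells, and 1 was higher and 5 lower than in intercalated duct-like cells. All 8 measured genes of secretory granules and exocytosis were higher than in acinar-like cells, where most genes were. Against intercalated duct-like cells 2 of them were higher and 4 lower.

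**Figure D2:**
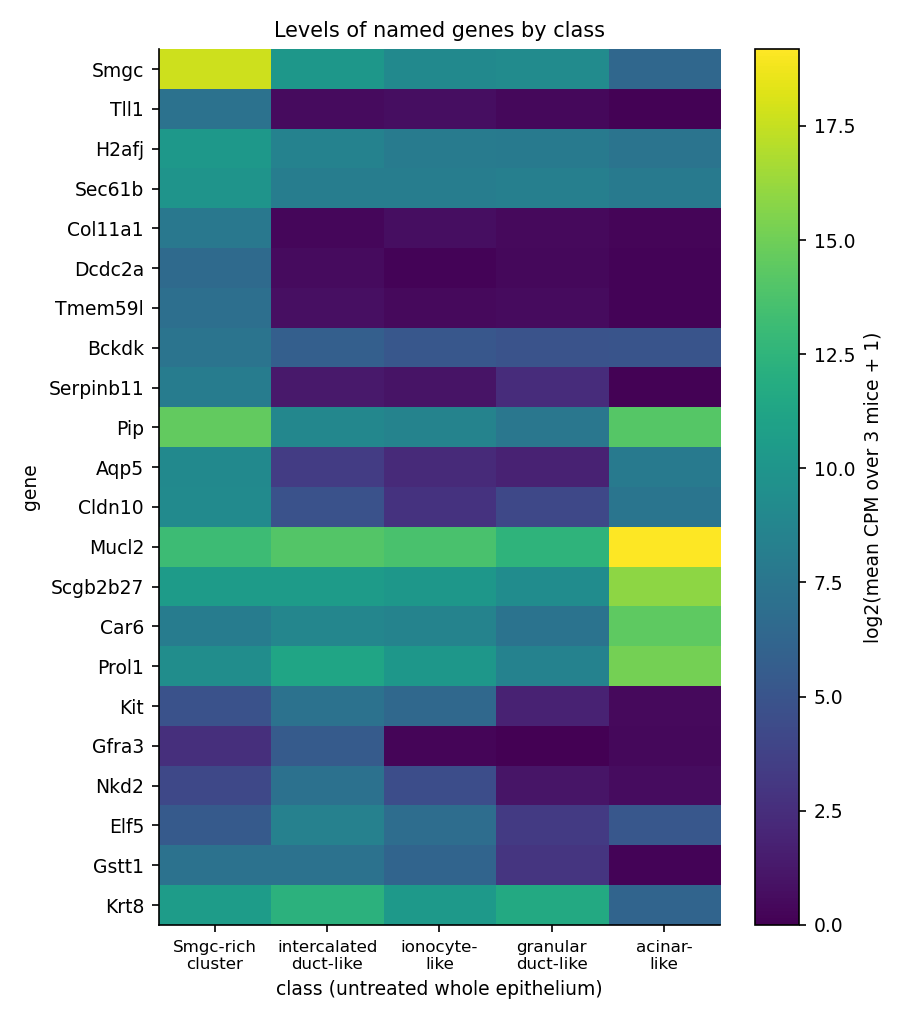
Levels of named genes (rows) in classes of kept untreated cells (columns), as log2 of the mean CPM over 3 mice + 1, shown by colour. The Smgc-rich cluster has the highest Smgc (218578 CPM), shares high Pip with acinar-like cells and Gstt1 with intercalated duct-like cells, and lacks the high Mucl2, Scgb2b27, Car6 and Prol1 of acinar-like cells.

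The genes most like Smgc over classes and mice, by Pearson's r of log2(CPM + 1), depended on whether the cluster stood alone. Under its rule name of acinar-like, over 17 points of 6 classes, the nearest were Pip (r = 0.95), Aqp5 (0.94), Mup5, Scgb2b26 and Mucl2 (0.92). With the cluster on its own, over 20 points of 7 classes, a choice made after its values were seen, the nearest were Tll1 (r = 0.97), H2afj, Sec61b and Col11a1 (0.95). Tll1, a secreted metalloprotease, stood at 152 ± 30.0 CPM (SD, n = 3) in the Smgc-rich cluster and under 1 in acinar-like and intercalated duct-like cells. Col11a1, a fibrillar collagen chain, stood at 209 ± 66.7 CPM in the cluster and at 0.23 to 0.26 in those other classes. In that arrangement Mucl2 had r = -0.33, Kit 0.27 and Muc19 0.80. Points of a mouse share a library and its free RNA, so these values only describe the pattern.

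Outside the Smgc-rich cluster, Smgc was lower in every class. Summed over all their cells, intercalated duct-like cells came to 332, 2652 and 370 CPM in mice 1 to 3, granular duct-like cells to 1436, 174 and 186, and ionocyte-like cells to 1078, 277 and 260. Cycling cells, only 8 in the untreated library, came to 415, 49618 and 400 CPM. In each of these classes the high mouse was the one with a single cell above the threshold. Among cells under 100 UMIs, intercalated duct-like cells stood at 394 ± 76.0 CPM, ionocyte-like cells at 267 ± 8.98, unnamed cells at 220 ± 39.8, granular duct-like cells at 177 ± 7.63 and acinar-like cells at 84.9 ± 8.32 (SD, n = 3 each). In these cells the intercalated duct-like level was 4.63-fold the acinar-like level. The mice's values did not overlap between neighbours in this order, except between ionocyte-like and unnamed cells. Counts per cell did not follow this order. Means were 3.06 Smgc UMIs in intercalated duct-like, 2.97 in ionocyte-like and 3.28 in granular duct-like cells, at median depths of 6580, 11075 and 18221 UMIs. Endothelial-like cells, 19 in the untreated library, stood at 651 CPM with a mean of 2.95 UMIs. The CPM order is therefore no ranking of Smgc per cell.

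The Smgc-rich cluster lay 195-fold above the mean of all intercalated duct-like cells and 555-fold above that of those under 100 UMIs, since 1 cell held 2779 Smgc UMIs in mouse 2. No mouse overlapped in either. The cluster was picked by its Smgc counts, and the second set of cells was cut at 100 Smgc UMIs. These gaps are thus partly set by that choice and are no test. Over all cells, the order was intercalated duct-like, granular duct-like, ionocyte-like, unnamed and acinar-like. Neighbours overlapped there except for the last pair, with granular duct-like above ionocyte-like cells and not below as among cells under 100 UMIs. Low counts were present in a cell type that is not known to make Smgc: 89.5% of 19 endothelial-like cells had an Smgc UMI, with a median of 3 at a median depth of 4011 UMIs, against 91.7% of intercalated duct-like cells below the threshold, with a median of 2 at 6580 UMIs. Shares at 1 UMI are therefore not read as showing that a class makes Smgc. The part of free RNA in them was not tested. Acinar-like cells had medians of 8 to 9 Smgc UMIs per mouse at median depths of 75821 to 101243 UMIs.

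**Figure D3:**
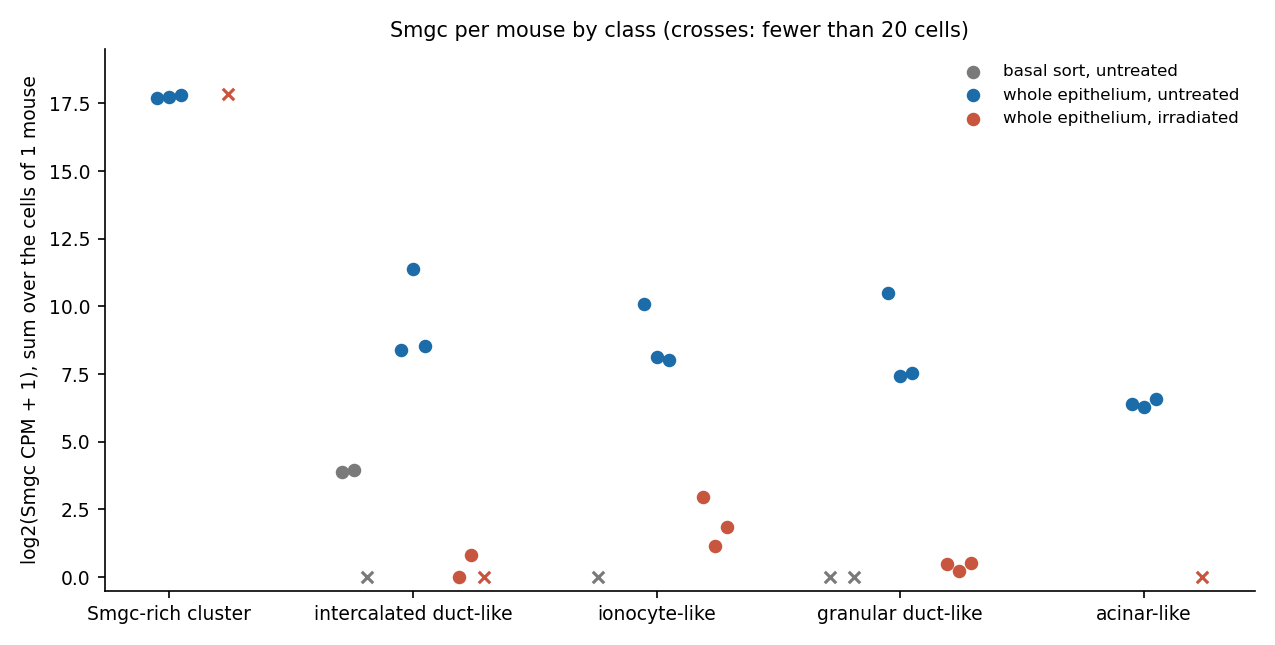
Smgc level as log2(CPM + 1) in the main classes of kept cells, with a point for each mouse and crosses for mice with fewer than 20 cells of the class; colours are the 3 libraries. The untreated Smgc-rich cluster is at 210688 to 229063 CPM, the other untreated classes shown lie between 77.1 and 2652 CPM, and irradiated mice lie at or below 6.75 CPM apart from the single Smgc-rich cell.

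Smgc-high cells and Mucl2-high cells were almost entirely different cells. Of 3935 untreated cells with 1 or no hashtag, 496 held at least 100 Smgc UMIs and 698 held at least 5000 Mucl2 UMIs. Both held for 7 cells, which were 1.41% of the first set and 1.00% of the second. Every kept untreated cell with at least 10 Smgc UMIs had a Mucl2 UMI, and so did every other kept untreated cell, so Mucl2 detection does not separate them. Without thinning, cells with at least 100 Smgc UMIs had a median Mucl2 count of 119 ± 2.57 UMIs (SD, n = 3). The other cells had 97.7 ± 4.51. With each cell thinned to 2000 UMIs the order was reversed, at 13.7 ± 1.53 against 16.8 ± 0.76. The thinned ranges, 12 to 15 and 16 to 17.5, did not overlap. The first set was chosen by Smgc, which took a large share of its UMIs. At a fixed total this lowers the counts of all other genes. The reversal is thus at least partly set by that choice and says nothing certain of Mucl2.

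Kit was set beside Smgc per mouse, as a description without a test. A Kit UMI was present in 17.8% ± 5.08 (SD, n = 3) of kept untreated cells with at least 10 Smgc UMIs and in 34.2% ± 3.22 of the others. The ranges, 13.8% to 23.5% and 30.5% to 36.6%, did not overlap, and the cells with more Smgc were lower in every mouse. With each cell thinned to 2000 UMIs the shares were 1.77% ± 0.18 and 11.8% ± 2.67. The limit of a fixed total given for Mucl2 applies here too. Outside the Smgc-rich cluster, cells with at least 10 Smgc UMIs had a median of 20989 ± 11427 Mucl2 UMIs, and 16.7% ± 10.3 of them had a Kit UMI. Among intercalated duct-like cells the Kit share was 46.7% ± 5.77 at 10 or more Smgc UMIs, in 9 cells, and 58.6% ± 1.78 below.

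In the Smgc-rich cluster 18.2%, 16.7% and 19.4% of cells of mice 1 to 3 had a Kit UMI, between the 3.24% ± 0.95 of granular duct-like cells and the 58.3% ± 1.90 of intercalated duct-like cells. Ionocyte-like cells, the ion-transporting cells of the ducts, had a Kit UMI in 53.8% ± 4.17.

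**Figure D4:**
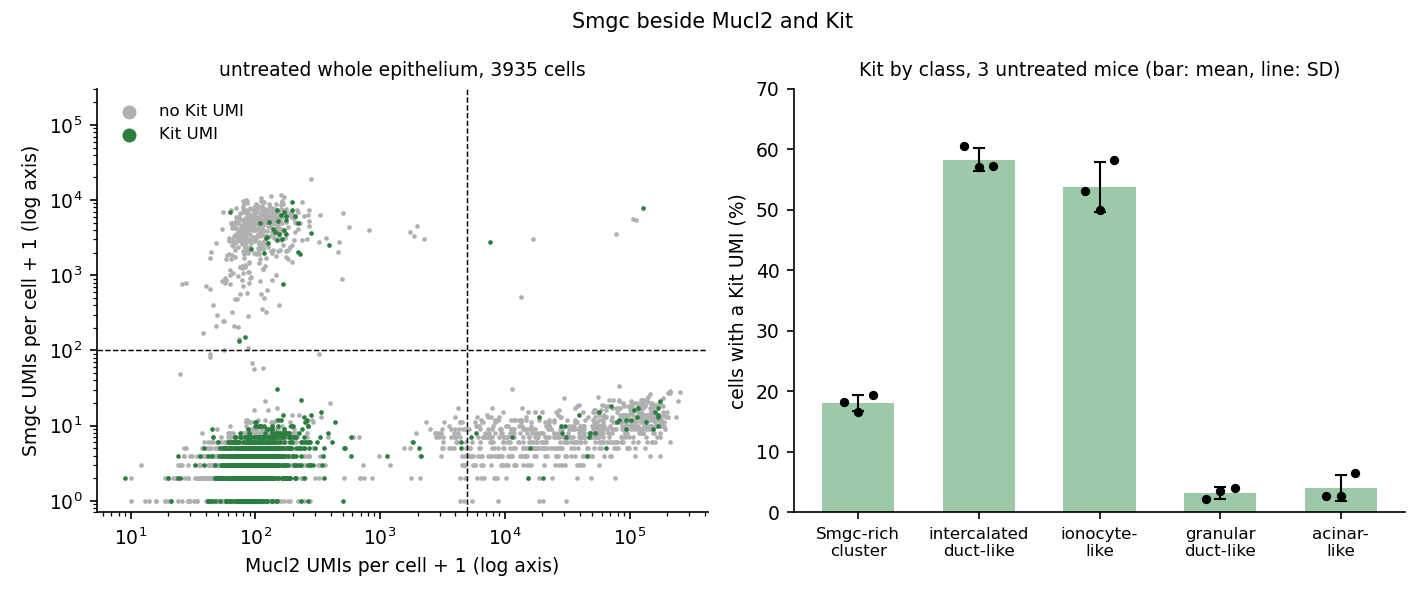
Left, Smgc against Mucl2 UMIs (each + 1, logarithmic axes) in 3935 untreated cells, coloured by whether the cell had a Kit UMI; dashed lines mark 100 Smgc and 5000 Mucl2 UMIs. Right, the percent of cells with a Kit UMI by class in kept untreated cells, without thinning, with a point per mouse and the mean and SD. On the left 7 cells lie above both lines, and on the right the Smgc-rich cluster lies near 18% for Kit.

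Most Smgc-high cells had no hashtag call and could not be given to a mouse. In the untreated library 386 of 1719 cells without a hashtag call (22.5%) had at least 100 Smgc UMIs, against 110 of 2216 cells with 1 hashtag (4.96%). With both kinds of cell clustered together, 386 of 491 cells of the Smgc-rich cluster had no call (78.6%; 95% exact binomial interval 74.7% to 82.2%). Among acinar-like cells this was 618 of 761 (81.2%; 78.2% to 83.9%). Intervals cover counting error only. The shares per mouse given above therefore leave out most Smgc-high cells: 22.2% of those with 1 or no hashtag had a mouse.

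Hashed and unhashed Smgc-high cells differed in Kit and in the level of Smgc. A Kit UMI was present in 25 of 110 cells with 1 hashtag (22.7%; 15.3% to 31.7%) and in 9 of 386 without a call (2.33%; 1.07% to 4.38%). Median depth was 19349 UMIs in the former and 15513 in the latter. Median hashtag counts were 239 and 136. Smgc gave a median of 20.6% of UMIs in the former and 27.3% in the latter. In the Smgc-rich cluster of the joint clustering, Smgc stood at 210709 CPM in hashed and 281168 CPM in unhashed cells. The levels per mouse given above rest on hashed cells only. Kit stood at 28.4 CPM in hashed and 2.22 CPM in unhashed cells of this cluster.

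Several genes of other duct cells were also higher in the hashed cells of the Smgc-rich cluster. Elf5 stood at 49.3 against 2.57 CPM in hashed and unhashed cells, and Klk1, a kallikrein of granular ducts, at 9314 against 1364. The 10 granular duct markers summed to 10432 against 1571 CPM, with 8 higher in hashed cells and 1 at 0 in unhashed cells. The 6 ionocyte markers summed to 85.2 against 12.1 CPM, all higher in hashed cells. Acinar-like cells of the same clustering showed gaps of the same direction: Kit stood at 1.60 CPM in hashed and 0.37 in unhashed cells, with a Kit UMI in 11.2% and 3.40% of cells, and Klk1 at 1807 and 305 CPM. Elf5 did not differ in this way there, at 35.8 and 34.1 CPM. The part of these cell types' RNA in the Kit values was not tested. Other genes of the cluster were alike: Gstt1 stood at 144 against 151 CPM, Pip at 23129 against 26145, Col11a1 at 191 against 195 and Muc19 at 39.8 against 40.0. As 1 library gives no mouse for unhashed cells, these values have no test.

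**Figure D5:**
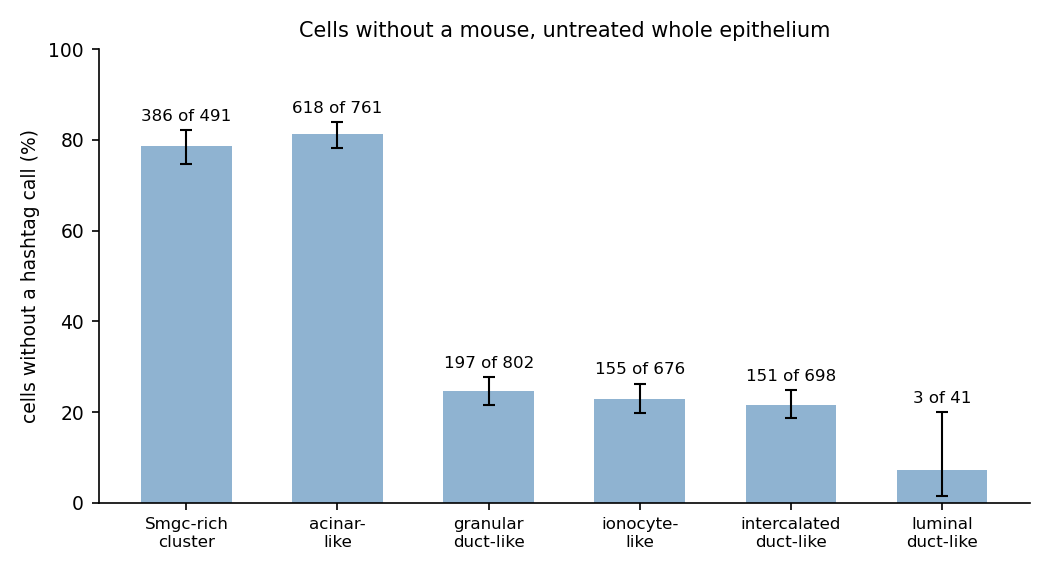
Percent of cells without a hashtag call by class in the untreated library, with 95% exact binomial intervals that cover counting error only. The Smgc-rich cluster (78.6%) and acinar-like cells (81.2%) stand far above granular duct-like, ionocyte-like and intercalated duct-like cells.

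Smgc fell in the irradiated whole epithelium. Kept cells of the 3 irradiated mice came to 1.33, 277 and 0.992 CPM, against 6950, 11315 and 9530 CPM in untreated mice. No irradiated mouse came near an untreated one. In mouse 2, 7447 of 7460 Smgc UMIs were in a single cell, while mouse 1 had 9 UMIs and mouse 3 had 10 in all their kept cells. The log2 fold change was -6.98 ± 1.90 (SE) by edgeR's quasi-likelihood test (adjusted p = 0.0184). Without irradiated mouse 2 it was -13.31 ± 0.38, and without that single cell -13.80 ± 0.44. With the Smgc-rich cluster left out of both groups it was -9.57 ± 0.62. In sums over a sample, fewer cells of a type and less RNA per cell cannot be told apart. Of 11972 genes tested, 20.6% were called higher and 19.8% lower. Scaled by library size alone, the counts of higher and lower genes went from 2467 and 2368 to 5195 and 943, the median of all genes to 0.31 and Smgc to -6.62 ± 1.79.

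Cells at or above 100 Smgc UMIs were 1 of 2629 past the filters in the irradiated library (0.038%; 95% exact binomial interval 0.000963% to 0.212%), against 12.5% in the untreated library. Among 294 irradiated cells without a hashtag call there was none. This allows a share of up to 1.02% by 3 counts, or 1.25% by the exact binomial interval. All these limits cover counting error over pooled cells and not the spread between mice. After thinning to 2000 UMIs, 43.3% ± 2.33 of untreated and 0.11% ± 0.19 of irradiated kept cells had an Smgc UMI (SD, n = 3). Without thinning the shares were 93.9% ± 1.56 and 1.35% ± 0.58. The ranges did not overlap, and the exact, 2-sided permutation test gave p = 0.1, the smallest it can give for 3 against 3 mice. Thinning left out 69 untreated and 53 irradiated cells. Before thinning, the untreated share at 1 UMI is near that of endothelial-like cells, and the part of free RNA in this difference was not tested. Shares of cells with at least 10 UMIs were 8.00% ± 0.63 and 0.027% ± 0.047, with the same p of 0.1 in the exact permutation test. Of the 171 untreated kept cells at this threshold, 50 were acinar-like. That class had a median of 9 Smgc UMIs at a median depth of 84905 UMIs, so 10 UMIs lies close to the usual count of these deep cells. Kept acinar-like cells were 119 in the untreated and 8 in the irradiated library.

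The single irradiated Smgc-rich cell, from mouse 2, held 31526 UMIs and 4200 detected genes. Smgc gave 23.6% of its UMIs, beside median shares of 21.4% ± 1.28 (SD, n = 3) in the Smgc-rich cells of untreated mice. It had 0 Kit, 5 Mucl2, 0 Muc19, 65 Pip, 32 Aqp5 and 23 Gstt1 UMIs. As a share of its UMIs, Pip lay far below the untreated cluster's 24657 ± 3592 CPM, and Aqp5 above its 535 ± 53.2. Of the genes nearest to Smgc with the cluster on its own, it had 36 H2afj, 19 Sec61b, 5 Bckdk, 4 Dcdc2a and 3 Tll1 UMIs. Col11a1, Tmem59l and Serpinb11 were at 0. Its doublet score stood at percentile 92.1 of its library's kept cells, and whether it was a doublet was not tested. Its barcode was in neither other library. The irradiated acinar-like cells were 8, all of mouse 2, and held no Smgc UMI.

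The low Smgc counts of other duct cells fell as well. In granular duct-like cells the irradiated mice stood at 0.393, 0.182 and 0.443 CPM, against 1436, 174 and 186 CPM in untreated mice. The log2 fold change was -10.98 ± 1.15 (edgeR, adjusted p = 2.6e-05), in a background of 19.1% of genes higher and 19.1% lower. In ionocyte-like cells irradiated mice stood at 6.75, 1.22 and 2.62 CPM against 1078, 277 and 260 CPM, a log2 fold change of -7.89 ± 0.70 (edgeR, adjusted p = 1.8e-06; background 15.4% higher and 10.7% lower). With cells under 100 UMIs only, these changes were -9.24 ± 0.20 and -6.88 ± 0.23. The groups did not overlap in either class. Mucl2, the acinar product, changed by -2.84 ± 0.66 and -6.99 ± 0.21 in the same cells. The part of free RNA in both was not tested. Different clusters held most of each class in the 2 libraries: 9 in untreated against 17 and 18 in irradiated granular duct-like cells, and 11 against 19 in ionocyte-like cells.

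Irradiated intercalated duct-like cells were too few in 1 mouse for the test: 22, 70 and 14 cells. They held 0, 1 and 0 Smgc UMIs, at median depths of 14610 to 17266 UMIs. Different clusters held most of this class too: cluster 8 had 368 and cluster 12 had 187 of the untreated cells, against 6 and 100 of the irradiated cells. A Kit UMI was present in 50%, 47.1% and 50% of them. With computed doublets kept, the mice had 30, 100 and 21 cells, and the log2 fold change was -10.45 ± 1.31 (edgeR, adjusted p = 0.00027). The untreated sums there were 490, 3361 and 589 UMIs, against 0, 2 and 0.

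Other genes of the secretory programme moved in different ways over all kept cells. Mucl2 fell from 201939 ± 10497 to 2032 ± 2320 CPM (SD, n = 3), a log2 fold change of -6.98 ± 1.04 (edgeR, adjusted p = 0.001). Kit fell from 34.2 ± 5.68 to 24.1 ± 4.86 CPM, with a log2 fold change of -0.82 ± 0.16 (adjusted p = 0.0038), or -0.49 ± 0.16 (adjusted p = 0.031) scaled by library size. In ionocyte-like cells Kit had a log2 fold change of -0.10 ± 0.10 and was not called. Muc19, at 2.54 ± 0.72 against 0.973 ± 0.25 CPM, had a log2 fold change of -1.73 ± 0.31 (adjusted p = 0.0029). Of its 102 untreated UMIs, 59 were in the Smgc-rich cluster, and of its 43 irradiated UMIs, 39 were in ionocyte-like cells. In ionocyte-like cells it stood at 2.78 ± 1.72 CPM in untreated and 4.45 ± 2.89 in irradiated mice, and was too low to be tested.

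Of the mucins and mucin-like proteins, 7 of 12 passed the filter on low counts, and 1 rose and 4 fell. The median log2 fold change was -1.73, the value of Muc19, beside -0.03 over all genes. Prol1, a proline-rich salivary mucin-like protein, fell by 6.34 and Mucl1 by 3.67 on the log2 scale, while Muc13, a membrane mucin, had 0.30 ± 0.12 and was not called. Scaled by library size, 3 of the 7 rose and 4 fell, and Muc13 was called at 0.64 ± 0.11. Of 17 tested O-glycan enzymes, 5 rose and 4 fell (median 0.08). These shares, 29.4% and 23.5%, were near the 20.6% and 19.8% of all genes, and scaled by library size 8 rose and 2 fell. Galnt2, which starts O-glycans, rose by 0.77 ± 0.10, or by 1.11 ± 0.11 scaled by library size. C1galt1, which makes their core, stood at 26.0 ± 0.68 CPM in untreated and 28.1 ± 0.50 in irradiated mice, and its sign turned with the scaling: -0.23 ± 0.08 (edgeR, adjusted p = 0.045) against 0.11 ± 0.09 (adjusted p = 0.31). Of 15 tested saliva proteins 2 rose and 10 fell (median -5.30), among them Scgb2b26 at -9.22 ± 0.54 and Car6 at -6.89 ± 1.75. Scaled by library size these counts were again 2 and 10.

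Of 5 intercalated duct genes none rose and 4 fell (median -1.69): Nkd2 changed by -2.28 ± 0.17 and Elf5 by -1.69 ± 0.19, while Gstt1 had -0.11 ± 0.12 and was not called, nor under library size, where it had 0.23 ± 0.13. Of 10 tested genes of secretory granules and exocytosis, 2 rose and 4 fell (median -0.22), or 20% and 40% beside 20.6% and 19.8% of all genes. Scaled by library size, 4 rose and 2 fell (median 0.12 beside 0.31 over all genes), so the list has no settled direction. The SNARE genes Stx3 and Snap23 rose by 1.44 ± 0.14 and 0.73 ± 0.10, and under library size by 1.79 ± 0.15 and 1.07 ± 0.10. Vamp8, also a SNARE gene, had 0.05 ± 0.08 and was not called, but was called at 0.39 ± 0.10 under library size.

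The Cd49f-high sort, rich in basal duct-like cells, held almost no Smgc. Its mice stood at 0.537, 2.69 and 0.141 CPM of Smgc, with 10, 25 and 2 UMIs in all kept cells. No cell of 4418 reached 100 Smgc UMIs. By counting error alone this allows a share of up to 0.0679% by 3 counts, or 0.0835% by the exact binomial interval. The change was called against the same untreated mice (edgeR, adjusted p = 4.0e-07), where 36.2% of 12933 genes were higher and 36.9% lower (4677 and 4778 genes, or 6960 and 2660 when scaled by library size). The 112 intercalated duct-like cells of this sort held 8 Smgc UMIs, 2, 6 and 0 in the 3 mice. A Kit UMI was present in 72.7%, 71.8% and 42.1% of these cells. Kit-positive intercalated duct-like cells with almost no Smgc were thus present in the libraries that held 1 and 0 Smgc-rich cells.

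Among the same lists in this comparison, all 7 tested mucins and 13 of 14 tested saliva proteins fell, and 1 saliva protein rose. Of 16 O-glycan enzymes 3 rose and 11 fell, or 4 and 8 scaled by library size. All 5 intercalated duct genes fell, or 4 scaled by library size. This comparison shares its untreated mice with the irradiated one, so the 2 are not independent.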

How the data were processed

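Single-cell 3' RNA libraries were read as the deposited tables of whole-number UMI counts per gene and cell, made by the authors with Cell Ranger 6.1.2 on mm10, per the submitters' processing notes. Totals over all barcodes were 137835128 gene UMIs (untreated), 58485558 (irradiated) and 59207148 (basal sort). Barcodes under 500 genes or above 20% mitochondrial UMIs were left out. Hashtag calls followed Seurat 5.3.0's HTODemux approach (quantile 0.99), and the singlets with the highest Scrublet scores (scanpy 1.11.5) were removed, as many as the hashtag doublets imply within 1 hashtag (79 untreated, 149 irradiated, 122 basal-sort). Then 20 Leiden clusters (resolution 1, 2000 variable genes, 30 components) were made without Smgc, Mucl2 and Kit. A cluster was named from at least 3 markers raised 1.5-fold and found in 10% of its cells.

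UMIs were summed per mouse and tested with edgeR 4.0.16 (quasi-likelihood, TMM, Benjamini-Hochberg over all tested genes, threshold 0.05), within classes where every mouse had at least 20 cells. Shares were compared by exact permutation tests; intervals are exact binomial at 95%, and a count of 0 was limited by 3 counts. Hashtag numbers did not pair mice across libraries. The edgeR step was tested on simulated data. Genes were named by a written rule, and the gene, its comparison genes and all lists were chosen with earlier results of these data known. Alternatives are listed in the closing section. Sequences and coordinates are RefSeq's for GRCm38.p6.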

Additional observations from a re-analysis of the deposited data

Results flagged for a closer look

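Smgc-high cells were also present in barcodes that the comparisons between mice did not use. At least 100 Smgc UMIs were held by 22.45% of untreated cells without a hashtag call, by 8.861% of the untreated hashtag doublets and by 0.5975% of untreated barcodes outside the gene and mitochondrial filters, beside 12.5% of all untreated cells past the filters. The irradiated and basal-sort libraries had no such cell in any of these sets. The causes were not tested.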

How the results depend on the processing

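The fall of Smgc in irradiated against untreated kept cells held its direction and its call in all 15 alternatives (log2 -13.80 to -6.41, largest adjusted p 0.0343), that in granular duct-like cells in all 15 (-12.59 to -9.11), that in ionocyte-like cells in all 15 (-8.29 to -6.88) and that in the basal sort in all 13 (-15.16 to -13.24). With 1 mouse left out the first ranged from -13.31 to -6.41. With the replicate block it was -10.89 (edgeR, adjusted p = 0.0054). Same-numbered mice did not deviate together (r = -0.19 to -0.14), so the numbers are no pairing. The block changed no call for Smgc. Over all genes of the irradiated comparison it took the counts of higher and lower from 2467 and 2368 to 2062 and 1836. Scaling by library size alone moved the median of all genes to 0.31 (log2) in irradiated and 0.53 in basal-sort mice, with 5195 genes higher and 943 lower in the former and 6960 and 2660 in the latter, against 2467 and 2368 and 4677 and 4778. The Kit share in cells with at least 10 Smgc UMIs was 33.0% at a threshold of 1 UMI and 9.02% with unhashed cells added. Hashtags assigned by share left too few cells for granular duct-like and ionocyte-like tests, which were not run. Calls and signs of other named genes that change with the scaling stand beside them. Leaving out the Smgc-rich cluster, the single irradiated cell or cells above 100 UMIs, ordering classes without the latter, and clustering unhashed cells, were chosen after seeing the data.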
